A study of Mus musculus with 9 samples.

Results

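Interferon-stimulated and antiviral genes were examined in hematopoietic stem cells (HSCs) of mice in which Bcl11a had been deleted with an interferon-driven Cre. The set holds 47 genes listed by name: 4 transcription factors of the interferon response, 29 type I effectors and sensors, 11 gamma-type GTPases of the Gbp and Irg families, and 3 genes of antigen processing. Each was read from the probe set that carries its symbol alone, and from the one with the highest mean over the 9 arrays where there were several. A probe set of their own was found for 42 of the 47 genes, among 22180 genes measured, and 40 of them passed the filter on low values together with 16636 genes in all. Oas1a, Dtx3l, Gbp2 and Ifi47 were read only by probe sets shared with Oas1g, Parp9, Gbp2b and Olfr56, and Ifi44 had no probe set in the annotation used here. Mx1 and Gbp6 lay under the filter, at a mean log2 value of 3.31, and have levels but no test.

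The 9 arrays came from 3 genotypes with 3 replicates each, which the labels call biological. The wild-type group (WT) was Bcl11a fl/fl without Mx1-Cre, the heterozygous group (Het) was Bcl11a fl/wt with Mx1-Cre, and the knockout group (KO) was Bcl11a fl/fl with Mx1-Cre. WT mice therefore carried the floxed alleles but lacked the Cre, and Cre and the loss of Bcl11a cannot be told apart between WT and the other groups. Mice of every group were 6 to 8 months old and had received 5 intraperitoneal injections of poly(I:C), every other day, at a dose the labels give as 12 mg per g of body weight. The sorted cells were lineage-negative, Sca-1+ and Kit+ (LSK), CD48-, Flt3- and CD150+, and either YFP+ or YFP-, and neither the YFP state of each array nor the time from the last injection to the sort is stated in the labels. No mouse without poly(I:C) was among the samples, so the effect of the injections on these genes was not measured. Only the levels after the injections and their differences between genotypes can be described. Baseline expression and any remaining response cannot be told apart. Values are log2 expression from Affymetrix Mouse Gene 2.0 ST arrays. Interquartile ranges of the arrays ran from 2.22 to 2.69 in WT, 2.39 to 2.77 in Het and 2.42 to 2.83 in KO. Xist and Y-linked transcripts marked 4 of the 9 arrays as female (WT 1, WT 3, Het 3 and KO 3). Bcl11a read 8.73, 8.81 and 8.38 in WT, 8.34, 8.37 and 8.89 in Het, and 7.82, 7.90 and 8.66 in KO; the library labelled KO 3 lay inside the WT range, and the KO minus WT difference of -0.51 had an exact two-sided permutation p of 0.2 (with groups of 3 no p under 0.1 can be reached). The labels do not say whether its probes lie in the deleted part of the gene.

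Poly(I:C) imitates viral double-stranded RNA and makes the body release type I interferon. That interferon binds the receptor Ifnar1/Ifnar2, whose kinases Jak1 and Tyk2 activate a complex that holds Stat2 and Irf9 and binds the interferon-stimulated response element (ISRE) of antiviral genes. Interferon gamma acts through Ifngr1/Ifngr2, Jak1 and Jak2 on genes with a gamma-activated site (GAS), and switches on Irf1, the guanylate-binding proteins and the immunity-related GTPases. The groups of targets overlap, and many GTPases respond to type I interferon as well. HSCs respond to either interferon, and a strong type I signal is known to bring quiescent HSCs into cycle. The Mx1 promoter that drives the Cre is itself a type I interferon target.

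Gamma-type GTPases and type I genes differed in how they lay between genotypes. The name gamma-type covers the listed Gbp and Irg genes only, and not gamma targets in general. All 8 tested gamma-type GTPases read higher in KO than in WT, with a median log2 difference of 0.94 (range 0.68 to 1.70), while the 25 tested type I genes were split, 11 higher and 14 lower, with a median of -0.06. In Het cells the gamma-type median over WT was 0.31 and the type I median 0.13. Of all genes tested 45.3% read higher in KO than in WT, and of those above the median level 56.1%. The genes were listed with earlier results of these data known, and the difference between the classes was not tested. No gene of the set passed the test in any comparison at an adjusted p under 0.05 (limma, Benjamini-Hochberg over the 16636 genes tested), so these are differences in size and direction and not called changes. They rested in part on the WT 1 and KO 1 arrays: without both, a choice made after the values were seen, the gamma-type median over WT was 0.42.

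Most of the set read above the range of absent transcripts. As a scale, 3 Y-linked genes read 2.22 to 3.32 on the 4 female arrays and Xist read 3.58 to 4.22 on the 5 others; Y-linked genes that were present reached down to 3.86, so a dim transcript can fall in this range too. On all 9 arrays 34 of the 42 genes read above 4.22, 5 did so on some arrays (Isg15, Oasl1, Rsad2, Gbp5 and Gbp9) and 3 on none (Mx1, Mx2 and Gbp6). By mean level 38 of the 42 lay above the median gene (4.29), 27 above the 75th percentile (5.62) and 9 above the 90th (6.91). Probe sets differ in how well they bind, so the order of readings between genes is not an order of transcript amounts. The class medians of the mean reading were 6.02 for type I genes, 6.05 for gamma-type GTPases, 5.72 for the factors and 7.16 for antigen processing.

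**Figure D1:**
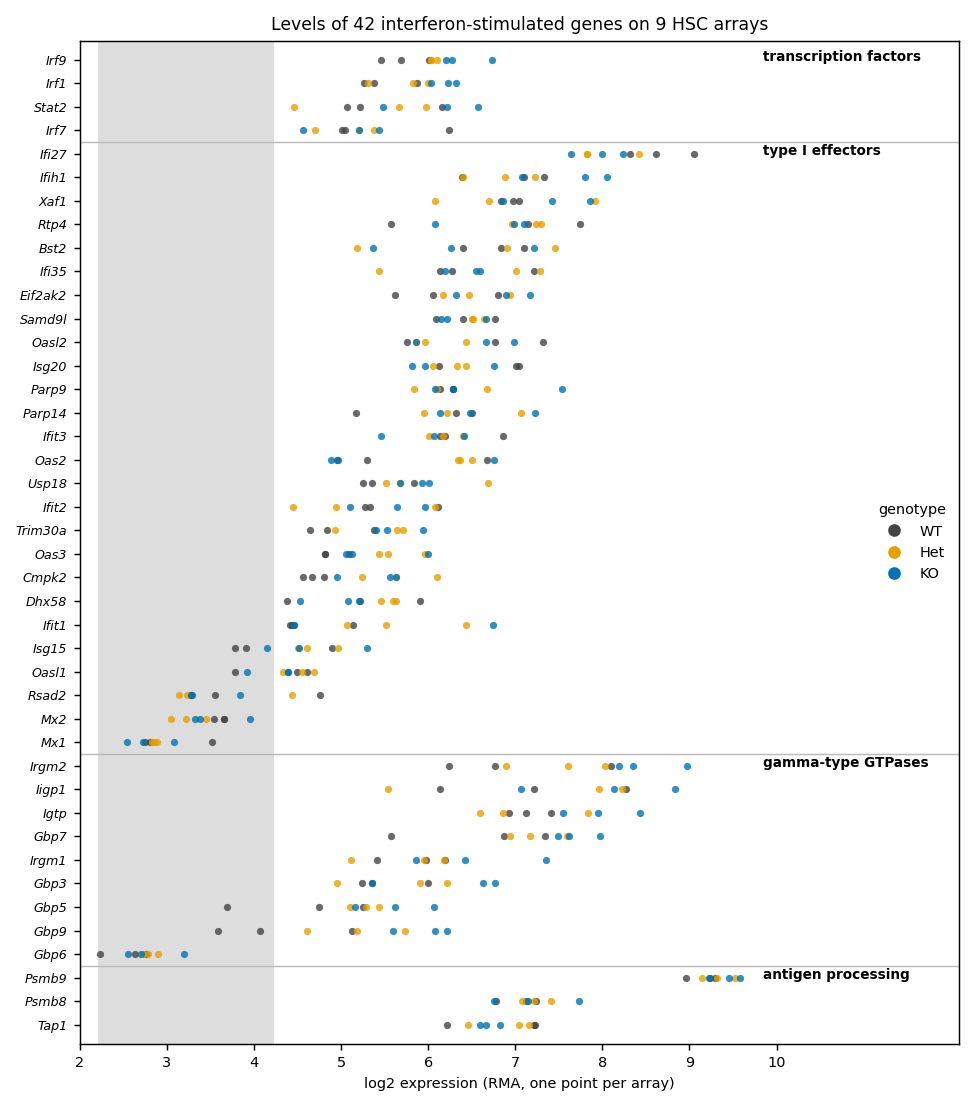
Log2 expression (x axis) of the 42 genes with a probe set of their own, 1 point per array and coloured by genotype, ordered by mean within each class; the grey band runs from 2.22 to 4.22, the readings of sex-linked transcripts on arrays that should lack them. Mx1, Mx2 and Gbp6 lie inside the band on all 9 arrays, and 34 genes lie above it on all 9.

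The highest readings belonged to Psmb9, an inducible subunit of the immunoproteasome, which read 8.96, 9.24 and 9.29 in WT, 9.32, 9.14 and 9.52 in Het and 9.58, 9.45 and 9.23 in KO. It was also the steadiest gene, with a pooled SD within genotypes of 0.182. Ifi27, a small hydrophobic protein induced by type I interferon, came next with 8.32 to 9.05 in WT and 7.64 to 8.42 in the other arrays. Among the readings near the scale of absent transcripts were classical antiviral effectors. Mx2, a dynamin-like antiviral GTPase, read 3.05 to 3.95 and Mx1, its neighbour and the source of the Cre promoter, 2.54 to 3.52, with the highest Mx1 value on WT 2. Rsad2 (viperin), an enzyme that makes a chain-terminating nucleotide, read 3.14 to 3.84 on 7 arrays and 4.76 and 4.43 on WT 2 and Het 2. Oasl1 read 3.78 to 4.69. Isg15, the ubiquitin-like modifier, read 3.91, 3.78 and 4.89 in WT, 4.96, 4.51 and 4.61 in Het and 5.30, 4.52 and 4.15 in KO, so that the genotypes overlapped.

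The set varied more between replicates than the usual gene. The median pooled SD within genotypes was 0.514 for the 40 tested genes, against 0.368 over all genes tested and 0.419 over genes above the median level, and 30 of the 40 exceeded the first of these. Iigp1, an Irg GTPase that attacks the vacuoles of intracellular parasites, had the largest value, 1.17. It read 6.14, 8.27 and 7.22 in WT, 8.22, 5.54 and 7.96 in Het and 8.83, 8.13 and 7.06 in KO. Bst2 (tetherin), which holds budding virions at the cell surface, read 6.84, 7.10 and 6.40 in WT, 7.46, 5.18 and 6.90 in Het and 7.22, 6.26 and 5.37 in KO, with a pooled SD of 0.893. Ifit1, which binds foreign RNA ends, stayed between 4.41 and 5.52 on 7 arrays and read 6.43 on Het 2 and 6.74 on KO 1. Oas2, an oligoadenylate synthetase, read 4.88 to 5.30 on WT 1, WT 2, KO 1 and KO 2 and 6.34 to 6.76 on the others. In these 4 genes the genotypes overlapped in every comparison.

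The factors act first in the response. Irf9, the DNA-binding part of the complex formed after type I signalling, read 6.01, 5.46 and 5.69 in WT, 6.03, 6.03 and 6.10 in Het and 6.27, 6.73 and 6.20 in KO. Each Het array lay above each WT array and each KO array above each Het array. The KO minus WT difference was 0.68 (SE 0.238), 1.60-fold, with an unadjusted p of 0.0167 and an adjusted p of 0.543 by limma. Irf1, an activator and itself a classical gamma target, read 5.26, 5.38 and 5.87 in WT, 5.31, 5.83 and 6.00 in Het and 6.23, 6.32 and 6.03 in KO. Every KO array lay above every WT and Het array, by 0.69 (SE 0.263, adjusted p = 0.563, limma) over WT and 0.48 over Het. Stat2, the partner of Irf9, read 5.22, 5.07 and 6.16 in WT, 5.67, 4.46 and 5.98 in Het and 6.57, 6.21 and 5.48 in KO, and the groups overlapped. Irf7, which amplifies the production of type I interferon, went the other way, with 5.01, 5.04 and 6.24 in WT, 5.38, 4.70 and 5.21 in Het and 5.21, 5.44 and 4.56 in KO. Its highest value stood on WT 3 alone, and its difference of -0.36 (SE 0.378) was smaller than its error.

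Gamma-type GTPases defend the cell against intracellular bacteria and parasites; guanylate-binding proteins (Gbp) coat pathogens and their vacuoles, and immunity-related GTPases (Irg) disrupt or guard such membranes. Gbp9 had the largest difference of the set. It read 5.12, 3.59 and 4.07 in WT, 5.18, 4.61 and 5.73 in Het and 6.08, 6.22 and 5.59 in KO. Every KO array lay above every WT array, and 2 WT values lay within the range of absent transcripts, where RMA compresses differences. The KO minus WT difference was 1.70 (SE 0.413), 3.26-fold, with an unadjusted p of 0.00195 and an adjusted p of 0.296 by limma, and over the alternatives tried it ran from 1.37 to 2.13 with adjusted p of 0.0769 to 0.635. Irgm2, a regulatory Irg protein of the cell's own membranes, read 6.24, 6.77 and 8.10 in WT, 7.61, 6.89 and 8.03 in Het and 8.97, 8.35 and 8.19 in KO. Every KO array exceeded every WT and Het array, by 1.47 over WT (SE 0.470, 2.76-fold, adjusted p = 0.486, limma), with WT 3 just below.

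Gbp7 read 5.57, 7.34 and 6.87 in WT, 6.94, 7.17 and 7.59 in Het and 7.97, 7.62 and 7.49 in KO, a difference of 1.10 (SE 0.409, adjusted p = 0.558, limma). WT 1 stood well below the other arrays. Gbp5, which promotes inflammasome assembly, read 3.69, 5.25 and 4.74 in WT, 5.44, 5.29 and 5.10 in Het and 6.07, 5.62 and 5.16 in KO, a difference of 1.06 (SE 0.386, adjusted p = 0.556, limma), and here KO 3 lay inside the WT range. Without WT 1 and KO 1 the differences of Gbp7 and Gbp5 were at their smallest over the alternatives, 0.45 and 0.40. Igtp (Irgm3), a partner of Irgm2 on the endoplasmic reticulum and lipid droplets, read 7.41, 6.93 and 7.12 in WT, 6.86, 6.60 and 7.84 in Het and 8.43, 7.55 and 7.95 in KO. Its KO arrays lay above all WT arrays (0.82, SE 0.353, 1.77-fold), whereas the Het mean stood at -0.05 from WT. The last 3 overlapped between the groups. Irgm1 read 5.41, 5.98 and 6.19 in WT, 5.11, 5.95 and 6.18 in Het and 7.35, 6.42 and 5.86 in KO (0.68, SE 0.415); Gbp3 read 5.24 to 6.00, 4.95 to 6.21 and 5.36 to 6.77 in the same order (0.72, SE 0.438); and Iigp1 had 0.80 (SE 0.755). Gbp6, under the filter, read 2.23 to 3.20. Genes of these families share long stretches of sequence, so a probe set can also bind a relative, and the members are not independent readings.

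**Figure D2:**
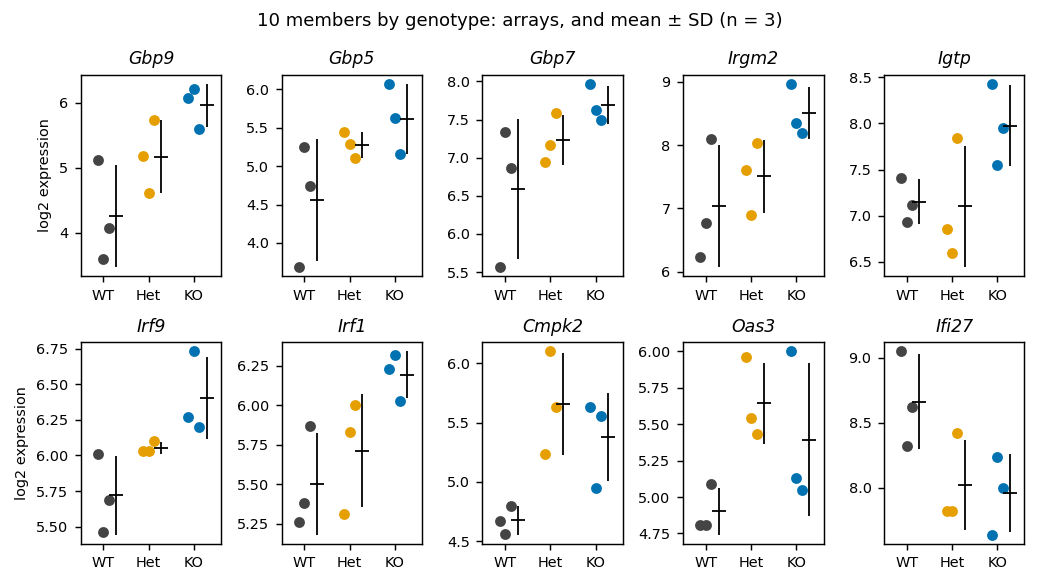
Log2 expression (y axis, a scale of its own in each panel) of 10 genes by genotype, with 1 point per array and the mean ± SD (n = 3 arrays) as a cross and bar. In Gbp9, Gbp7, Irgm2, Igtp, Irf9, Irf1 and Cmpk2 every KO array lies above every WT array, in Gbp5 and Oas3 the 2 groups overlap, and in Ifi27 every KO array lies below every WT array.

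Promoters of some of these genes are shown as a description, and were chosen after values were seen. Any part of their motifs in the differences between genotypes was not tested. Windows from RefSeq (build GRCm38.p6, 250 bases before to 50 after the start) were at hand for 35 of the 47 genes and were searched on either strand for the ISRE core (GAAA, any 2 bases, GAAA) and the GAS core TTCNNNGAA. Capitals mark the matches, read 5′ to 3′ along the gene's strand; TTTC, any 2 bases, TTTC is the ISRE core on the opposite strand, and overlapping ISRE matches run together.
Igtp: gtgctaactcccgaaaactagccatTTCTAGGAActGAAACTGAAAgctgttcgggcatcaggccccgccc
Irgm2: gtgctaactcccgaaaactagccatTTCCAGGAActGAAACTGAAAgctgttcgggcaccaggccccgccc
Irgm1: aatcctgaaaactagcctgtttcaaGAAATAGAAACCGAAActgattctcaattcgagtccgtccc
Gbp7: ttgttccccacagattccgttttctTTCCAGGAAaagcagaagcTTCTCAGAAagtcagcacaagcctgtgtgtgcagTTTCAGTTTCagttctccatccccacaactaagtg
Gbp3: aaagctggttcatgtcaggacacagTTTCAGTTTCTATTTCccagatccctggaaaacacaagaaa
Gbp5: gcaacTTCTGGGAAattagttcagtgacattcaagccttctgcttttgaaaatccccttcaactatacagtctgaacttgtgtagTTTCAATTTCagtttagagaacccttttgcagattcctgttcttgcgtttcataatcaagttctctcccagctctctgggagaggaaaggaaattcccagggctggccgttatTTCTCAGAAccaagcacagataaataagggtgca
The Igtp stretch lies at chr11:58199486-58199556 and the Irgm2 stretch at chr11:58214877-58214947 on the plus strand of chromosome 11. They are identical at 69 of 71 bases, with the substitutions T29C and T59C from Igtp to Irgm2, counted from 1 at the 5′ end of the stretch. Each holds 1 GAS match followed by 1 ISRE match. Irgm1 (chr11:48871410-48871475, minus strand) has 2 overlapping ISRE matches and no GAS in its window. Gbp7 (chr3:142530205-142530317), Gbp3 (chr3:142559974-142560039) and Gbp5 (chr3:142496684-142496915) lie close together on chromosome 3, plus strand; Gbp7 and Gbp5 have 2 GAS matches and 1 ISRE, and Gbp3 has 2 overlapping ISRE matches. Set beside them are the type I genes Isg15, Ifit1, Ifit3 and Oas3, and the factor Irf1. These type I genes hold ISRE matches only and do not stand for their class. Of 20 type I genes with a window, 6 held a GAS match and 7 held neither motif.
Isg15: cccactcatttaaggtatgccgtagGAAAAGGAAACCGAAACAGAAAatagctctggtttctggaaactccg
Ifit1: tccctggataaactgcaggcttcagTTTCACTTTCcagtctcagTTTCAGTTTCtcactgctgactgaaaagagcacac
Ifit3: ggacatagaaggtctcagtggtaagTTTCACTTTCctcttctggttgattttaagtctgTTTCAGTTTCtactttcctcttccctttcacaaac
Oas3: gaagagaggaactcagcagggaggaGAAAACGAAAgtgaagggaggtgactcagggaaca
Irf1: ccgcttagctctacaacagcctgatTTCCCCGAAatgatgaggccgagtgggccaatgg
Isg15 (chr4:156200850-156200921, minus strand) has 3 overlapping ISRE matches, Ifit1 (chr19:34640760-34640838) and Ifit3 (chr19:34583348-34583441) have 2 each on the plus strand, and Oas3 (chr5:120777700-120777759, minus strand) has 1. Irf1, a factor, has 1 GAS and no ISRE match in the window shown (chr11:53769899-53769957, plus strand). Irf1 and Gbp3 each have another window, which held no match. Genes with several windows were counted as holding a motif if any window did.

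Over the set, 18 of the 35 genes with a window held an ISRE match (51.4%), 12 a GAS match (34.3%), 7 both and 12 neither. Of all 27025 genes with a window 3.99% held an ISRE match and 9.55% a GAS match; of the 12928 among them that were tested, 3.51% and 8.32% did. Among genes with a window, ISRE matches occurred in 7 of 8 gamma-type genes and 10 of 20 type I genes. GAS matches occurred in 4 of 8 and 6 of 20. These 8 are not the 8 tested gamma-type genes. They include Gbp2 and Ifi47, which were not tested, and lack Gbp9 and Iigp1, which were. Igtp, Irgm2, Gbp5 and Gbp7, which hold both, had KO minus WT differences of 0.82, 1.47, 1.06 and 1.10. Eif2ak2 and Bst2, type I genes that also hold both, had 0.64 and -0.50, and Oas1a, the other such gene, had no probe set of its own. The genes were listed as interferon-stimulated, so their larger share of matches than all genes is no result of these arrays. A match describes letters and not binding, and Gbp9 and Iigp1 had no window.

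**Figure D3:**
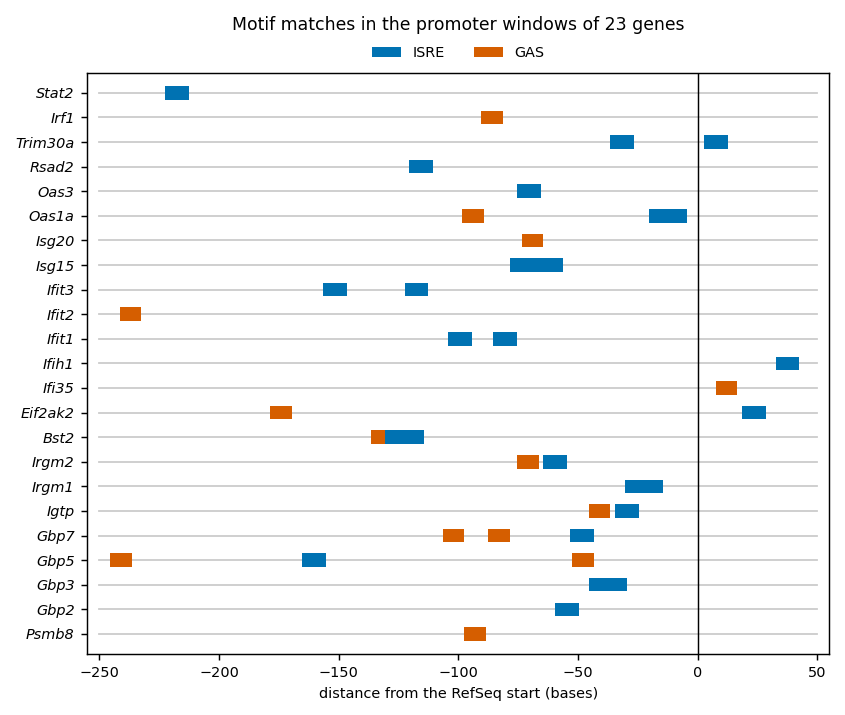
Positions of ISRE (blue) and GAS (orange) matches in bases from the RefSeq start (x axis, 0 at the start) for the 23 genes with at least 1 match, ordered by class. Most matches lie within 250 bases upstream of the start; those of Ifih1, Ifi35, and 1 each of Eif2ak2 and Trim30a lie after it.

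Between KO and WT, 24 of the 40 tested genes read higher (60%) and 16 lower, with a median of 0.42. Over all genes tested 45.3% read higher, with a median of -0.04. Over genes above the median level 56.1% did, with a median of 0.07. At an adjusted p under 0.05, 0 of the 40 were called, where 0.0421% of all genes tested were. At an unadjusted p under 0.05, 9 were higher (Gbp9, Irgm2, Irf9, Gbp5, Gbp7, Irf1, Cmpk2, Igtp and Trim30a) and 1 lower (Ifi27), where 5.4% of all genes were higher and 2.81% lower at that limit. Each KO array exceeded each WT array in 8 genes (6.51% of all genes) and lay below in 1 (7.32%). The balance of the genome depends on the scale: of genes at an unadjusted p under 0.05, 899 were higher and 467 lower as deposited, and 1122 and 290 with each array centred on its median. The 9 genes became 5 when the values were quantile normalized again, 4 when the model held the interquartile range of the array, 4 without WT 1, 4 without KO 1, 5 without WT 2, and 2 without both WT 1 and KO 1. All 8 gamma-type genes stayed higher in KO under 19 of the 21 alternatives. Iigp1 turned to -0.03 in the fit that held the interquartile range and to -0.15 without WT 1 and KO 1. Several of the 21, such as trend, replicate block and each Het array left out, leave these differences unchanged by construction. Those could not turn a sign, so the 19 are not independent checks.

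**Figure D4:**
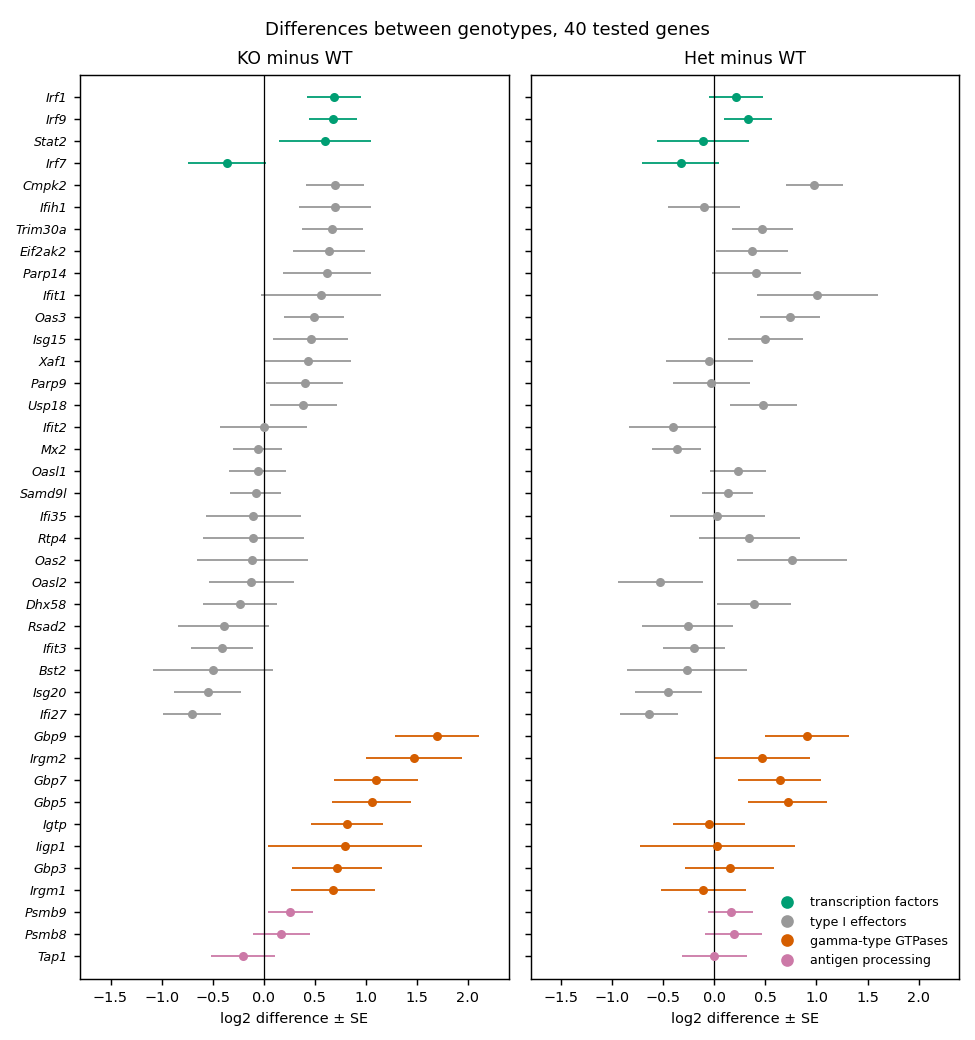
Log2 difference ± SE (x axis) of KO minus WT (left) and Het minus WT (right) for the 40 tested genes, coloured by class and ordered by the left panel within each class. Both panels share the WT arrays; gamma-type GTPases lie right of 0 in all 8 cases on the left and in 6 of 8 on the right.

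Type I genes had no common direction. Cmpk2, a mitochondrial nucleotide kinase that lies next to Rsad2, read 4.67, 4.56 and 4.80 in WT, 5.24, 6.10 and 5.63 in Het and 5.63, 4.95 and 5.56 in KO. Every Het and every KO array lay above every WT array, by 0.98 for Het (SE 0.283, unadjusted p of 0.00585, adjusted p = 0.758, limma) and 0.70 for KO (SE 0.283, adjusted p = 0.571). Trim30a, an inhibitor of Toll-like receptor signalling, read 4.84, 5.38 and 4.64 in WT, 4.93, 5.71 and 5.64 in Het and 5.40, 5.94 and 5.53 in KO, with KO just above WT throughout (0.67, SE 0.299). Ifi27 read lower outside WT, with 9.05, 8.32 and 8.62 in WT, 7.82, 7.82 and 8.42 in Het and 7.64, 8.24 and 8.00 in KO. All KO arrays lay below all WT arrays, by -0.70 (SE 0.284, adjusted p = 0.572, limma), and 2 of 3 Het arrays did.

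Sensors of viral RNA were likewise divided. Ifih1 (MDA5), the receptor for long double-stranded RNA and so for poly(I:C) itself, read 7.10, 6.39 and 7.33 in WT, 6.40, 6.88 and 7.23 in Het and 7.80, 7.08 and 8.05 in KO, 0.70 above WT (SE 0.350) and 0.81 above Het. Oas3, which makes the signal that activates RNase L, read 4.81, 4.81 and 5.09 in WT, 5.96, 5.54 and 5.43 in Het and 6.00, 5.13 and 5.05 in KO. Here Het was the higher group, 0.74 over WT without overlap (SE 0.292, adjusted p = 0.970, limma), and KO overlapped with WT. Eif2ak2 (PKR), the kinase that stops translation, was 0.64 higher in KO (SE 0.355) and Dhx58 (LGP2) -0.23 (SE 0.360), with its Het arrays at 5.46 to 5.63 above all KO arrays at 4.53 to 5.20. Oasl1, Oas2 and Oasl2 had KO minus WT differences of -0.06, -0.11 and -0.12.

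Among the effectors, Ifit1 was 0.56 higher in KO (SE 0.588), Ifit2 0.00 and Ifit3 -0.41 (SE 0.304), members of 1 family of RNA-binding proteins. Isg20, an exonuclease, had -0.55 (SE 0.332), Bst2 -0.50, Rsad2 -0.39 and Mx2 -0.06. Xaf1, a proapoptotic protein, had 0.43 and read 6.08 to 7.91 over the 9 arrays, and Samd9l, a growth restraint in blood cells, had -0.08 and read 6.09 to 6.77. Rtp4 (-0.10) ran from 5.57 to 7.74. Ifi35 had -0.10 by the probe set used and -0.01 by its second one, which differed more for Het minus WT (0.03 and -0.52). Isg15 and Usp18, the protease that removes Isg15 and dampens the type I receptor, had 0.46 and 0.39. Parp9 and Parp14, ADP-ribosyl transferase family members, had 0.40 and 0.62, with Parp9 at 7.54 on KO 1 and 5.84 to 6.68 elsewhere. Antigen processing was close to even, with 0.26 for Psmb9, 0.17 for Psmb8 and -0.20 for the peptide transporter Tap1, and overlap in all 3. The type I median of -0.06 turned to 0.03 with arrays centred on the median and to 0.16 with sex as a term, so it has no settled sign.

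Between Het and WT, which share the WT arrays with the comparison above, 24 of the 40 genes read higher (60%). Another 15 read lower and Tap1 the same, with a median of 0.16. Of all genes tested 48.2% read higher, and of those above the median level 53.9%. At an adjusted p under 0.05 limma called 0 of the 40, and 0% of all genes tested. At an unadjusted p under 0.05, Cmpk2 and Oas3 were higher and Ifi27 lower (-0.64, SE 0.284), where 3.12% and 1.77% of all genes were; 3 genes lay above WT without overlap (Irf9, Cmpk2 and Oas3; 4.51% of all genes) and Mx2 below (3.9%). Without WT 3 the 2 higher genes became 6. Gbp9 (0.91, SE 0.413) and Gbp5 (0.72, SE 0.386) came next but overlapped with WT. Ifit1 was 1.01 higher with an SE of 0.588. The 4 Gbp genes differed from WT by 0.15 to 0.91 and the 4 Irg genes by -0.11 to 0.47, ranges that overlap, and no difference between the families was tested. The median of the 8 GTPases, 0.31, moved to 0.05 without Het 3 and to 0.69 without Het 2.

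Between KO and Het, 21 of the 40 genes read higher (52.5%) and 19 lower, with a median of 0.14. Of all genes tested 46.9% read higher, and of those above the median level 53.8%. At an adjusted p under 0.05 limma called 0 of the 40, and 0% of all genes tested. At an unadjusted p under 0.05 Igtp (0.88) and Ifih1 (0.81) were higher and no member was lower, where 2.61% and 1.95% of all genes were; the 2 became 0 without Het 1, Het 2 or KO 1, each left out alone, and 6 without Het 3. Every KO array lay above every Het array in Irf1, Irf9 and Irgm2 (4.42% of all genes) and below in Dhx58 (5.4%). All 8 gamma-type GTPases were higher in KO, with a median of 0.78, and the type I median was -0.10. The first of these medians was 0.37 without KO 1 and 1.04 without Het 3, and without Het 2 it was 0.47 with 7 of 8 higher and Iigp1 at -0.08. The KO arrays are common to this comparison and to KO against WT.

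With the Het and KO arrays averaged against WT, Cre carriers are compared with mice without Cre. Here 29 of 40 genes were higher (72.5%), with a median of 0.27. Of all genes tested 46.4% were higher, and of those above the median level 55.9%. At an adjusted p under 0.05 limma called 0 of the 40, and 0% of all genes. At an unadjusted p under 0.05, 7 were higher (Gbp9, Cmpk2, Gbp5, Gbp7, Irf9, Oas3 and Irgm2) and Ifi27 lower, where 4.69% and 2.52% of all genes were. The 7 became 3 without WT 1, 4 without Het 3, 4 without KO 1 and 9 without WT 3. They became 3 without WT 1 and KO 1, and 3 when the model held the interquartile range of the array. Only Cmpk2 and Irf9 lay above WT on all 6 arrays of Cre carriers (1.7% of all genes), and none lay below (1.36%). Group means ran in the order WT, Het, KO in 12 of the 40 genes, where 18.6% of all genes did, and in the falling order in 6 (23.1%). Of the 8 gamma-type genes 6 ran in the rising order, all but Igtp and Irgm1.

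Averaged by array, the gamma-type mean was 5.62, 6.27 and 6.19 in WT, 6.41, 5.88 and 6.83 in Het and 7.56, 7.07 and 6.58 in KO. All 3 KO arrays lay above all WT arrays, but KO 3 was below Het 3. The type I mean was 5.67, 5.69 and 5.95 in WT, 5.81, 5.87 and 6.05 in Het and 6.11, 5.76 and 5.76 in KO, with overlap between all genotypes. The gap between the 2 means on the same array, which cancels a shift common to every gene, was -0.06, 0.58 and 0.25 in WT, 0.59, 0.01 and 0.78 in Het and 1.45, 1.31 and 0.82 in KO. It was wider on each KO array than on any other, by the least margin for KO 3 over Het 3. On KO 1 alone 16 of the 40 genes, 7 of them gamma-type, had their highest value. Lowest values were more spread, with 10 genes on WT 1, 9 on WT 2 and 8 on Het 2. Of the gamma-type genes 3 were lowest on WT 1 and 3 on Het 2. Among female arrays the gamma-type mean was 0.68 higher in KO than in WT, and among male arrays 1.05. For Het over WT the values were 0.92 and -0.12. Each value rests on a single array on one side. Female KO was KO 3 alone, female Het was Het 3 alone and male WT was WT 2 alone. Female WT held WT 1, the lowest array, and male KO held KO 1, the highest.

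**Figure D5:**
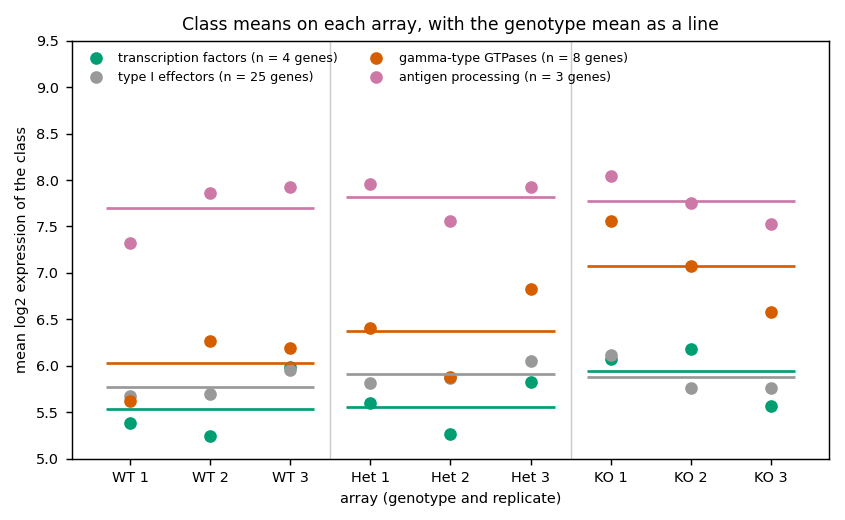
Mean log2 expression of each class (y axis, cut to 5 to 9.5) on each of the 9 arrays (x axis), with the mean of a genotype as a line. The gamma-type mean is 6.03 in WT, 6.37 in Het and 7.07 in KO, and the type I mean 5.77, 5.91 and 5.88.

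Some other measures had extremes on the same arrays as the gamma-type mean but did not follow it on every array. On Het 2 the gamma-type mean was 5.88, below WT 2 and WT 3. The mean of HSC-defining markers there was 6.83, above every WT array. The mean of 8 HSC-defining markers read 5.43 to 6.62 in WT, 6.82 to 7.20 in Het and 7.05 to 7.69 in KO; it was lowest on WT 1 and highest on KO 1, as was the gamma-type mean, and the interquartile range of the arrays was smallest (2.22) and largest (2.83) on the same arrays. Granulocyte genes by list mean read 5.22 to 6.31 in WT, 4.62 to 6.23 in Het and 4.52 to 4.88 in KO. Their KO minus WT differences were uneven, with -3.86 for S100a8, -1.99 for S100a9 and -1.28 for Ngp. The adjusted p was 0.41, 0.583 and 0.566 in that order (limma). Every KO array lay below every WT array in S100a8 and S100a9, whereas Ngp overlapped. The other granulocyte genes had -0.64 (Lcn2) to 0.03 (Ltf), also with overlap. In the fit that held the interquartile range the gamma-type median over WT was 0.69. The part of stem cell and granulocyte transcripts in the GTPase difference was not tested, and in sorted bulk cells fewer cells of a type and less RNA per cell cannot be told apart. By list mean, macrophage and monocyte genes read 4.18 to 4.74 in WT and 4.03 to 4.56 in KO, with 7 of 10 at or below 4.22 by mean, and T and NK cell genes read 3.75 to 3.89 and 3.59 to 3.97, with 6 of 8 at or below it. B cell genes read 4.17 to 4.34 and 3.75 to 4.03, and plasmacytoid dendritic cell genes 5.09 to 5.20 and 4.83 to 4.98. Single markers differed from these means. Klrb1c, an NK cell receptor, read 3.98, 4.95 and 3.77 in WT, 5.09, 4.24 and 4.02 in Het and 6.04, 7.07 and 6.14 in KO, 2.18 over WT (adjusted p = 0.168, limma), with every KO array above every WT and Het array. Cd68, a lysosomal protein of macrophages, read 7.53, 6.10 and 5.06 in WT and 8.03, 8.07 and 7.47 in KO, 1.63 over WT with overlap (adjusted p = 0.557, limma). Nkg7, a granule protein of NK and T cells, was lower in KO by -1.75 without overlap (adjusted p = 0.358, limma). These markers were singled out after their values were seen, and their part in the GTPase difference was not tested.

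Other genes of the pathway were read from a list of 95, of which 83 had a probe set of their own and 76 were tested. In KO against WT 53 of the 76 were higher (69.7%), with a median of 0.22. Of all genes tested 45.3% were higher, and of those above the median level 56.1%. At an unadjusted p under 0.05, 13 of the 76 were higher and 1 lower, where 5.4% and 2.81% of all genes were. In Het against WT it was 2 and 1, where 3.12% and 1.77% were. Limma called 0 of the 76 at an adjusted p under 0.05 in either. Every KO array lay above every WT array in 13 of the 76 (6.51% of all genes) and below in 0 (7.32%); every Het array lay above in 6 (4.51%) and below in 2 (3.9%). Of the ligands, Ifnb1, Ifng, Ifnk and Ifne lay under the filter. The other two, from a family of close copies that a probe set may not tell apart, had means over the 9 arrays of 6.21 for Ifna1 and 6.07 for Ifna4, with KO minus WT differences of -0.32 (SE 0.367) and -0.51 (SE 0.482). Ifna4 read 7.28, 6.07 and 6.71 in Het and 5.39, 6.00 and 5.14 in KO, -1.18 from Het without overlap (adjusted p = 0.998, limma). The type I receptor chains had KO minus WT differences of 0.27 for Ifnar1 and 0.04 for Ifnar2. The receptor for interferon gamma was uneven. Ifngr1, its binding chain, read 7.02 ± 0.0321 in WT (SD, n = 3), 6.66, 6.42 and 7.44 in Het and 7.86, 7.44 and 7.69 in KO. KO lay 0.64 over WT without overlap (SE 0.281, adjusted p = 0.592, limma), and Ifngr2 had -0.09. Jak1, the kinase common to both receptors, read 8.02, 8.10 and 8.05 in WT, 8.18, 8.14 and 8.65 in Het and 8.93, 8.85 and 8.74 in KO. Every KO array lay above every Het array and every Het array above every WT array, with KO 0.78 over WT (SE 0.218, unadjusted p of 0.00476, adjusted p = 0.410, limma). Jak2, which serves the gamma receptor, had 0.69 (SE 0.328) with overlap, and Tyk2, which serves the type I receptor, 0.21 (SE 0.285).

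Further down the pathway, Stat3 read 7.22 to 7.57 in WT, 7.65 to 8.17 in Het and 8.12 to 8.37 in KO, 0.78 over WT (SE 0.228, adjusted p = 0.429, limma). Irf2, which competes with Irf1 for the same sites, read 6.98 to 7.77 in WT, 7.93 to 8.30 in Het and 8.04 to 8.24 in KO, 0.74 higher in Het and 0.72 in KO. The nuclear body protein Pml was similar, with 7.45 to 7.94, 7.97 to 8.72 and 8.18 to 8.41. Neither group overlapped with WT in these genes. Sting1, the DNA-sensing adaptor, was 1.08 higher in KO (SE 0.397), and Oas1b 1.18 (SE 0.408) from readings of 3.27 to 4.33 in WT. Trim34a was 0.73 higher in KO and 0.66 in Het. Oas1g, a close relative of Oas1a, read 2.59, 3.25 and 4.53 in WT, 2.92, 8.07 and 5.83 in Het and 4.72, 6.69 and 6.00 in KO, with Het spread from 2.92 to 8.07. Against the GTPases, Cxcl9, a chemokine classed as a gamma target, read 6.11, 4.22 and 5.66 in WT, 4.07, 4.40 and 5.80 in Het and 3.92, 4.24 and 2.96 in KO, -1.62 below WT (SE 0.574, adjusted p = 0.543, limma). Ifitm1, which blocks viral entry, read 6.36, 7.09 and 4.59 in WT, 4.16 to 4.75 in Het and 5.11, 6.28 and 4.10 in KO, -1.54 for Het (SE 0.646).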

How the data were processed

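HSCs were profiled on 9 arrays, 3 per genotype; whether animals were pooled is not stated in the labels. The deposited values are log2 expression per probe set. The submitters' processing notes name RMA, which the authors used to make them, without a version or a genome build. RMA removes an estimated background, which compresses differences between dim readings. It usually sets arrays to 1 distribution, but the deposited arrays differed, with medians of 3.95 to 4.15 and interquartile ranges of 2.22 to 2.83. RNA was amplified with NuGEN Ovation Pico WTA, per the labels' protocols, which can add spread between arrays. The number of arrays limits the precision, with a median SE of 0.298 for KO minus WT.

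Of 41345 probe sets 23521 carried 1 symbol, 1814 several and 16010 none, by the platform annotation. Each of 22180 genes was taken from its probe set with the highest mean, and those below the 25th percentile of mean level (3.31) were left out. Differences were fitted on the log2 values by limma (version 3.58.1, under R 4.3.3) with lmFit and eBayes, a mean per genotype and all 9 arrays, and adjusted by Benjamini-Hochberg over 16636 genes, two-sided; an exact permutation test was used for Bcl11a. The fit was tested on simulated data. Filter, scaling, choice of probe set, trend, weights, replicate block, sex, array spread, the arrays fitted and each array left out were varied. Same-numbered arrays of different genotypes correlated at -0.185 to 0.229 in their deviations from the group means, so replicate numbers were not taken to pair samples.

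The members and lists were chosen with earlier results of these data known. Named with all their values were the 4 factors, the 6 members with the smallest p in each comparison, and those with the 5 highest means, 4 lowest means and 4 largest pooled SDs; of the pathway, receptors, kinases and up to 6 genes with the smallest p against WT. The values of Trim30a, Ifna1 and Ifna4 and the promoters shown were chosen after values were seen. Differences over male and female arrays are between plain means or single arrays, without a test.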

Additional observations from a re-analysis of the deposited data

How the results depend on the processing

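No member was called at an adjusted p under 0.05 in any comparison under the 21 alternatives tried. None of the 475 values recomputed for the members at an unadjusted p under 0.05 changed sign. These members were chosen by their p on the same arrays, and several alternatives leave a difference unchanged by construction. The 475 values are therefore no measure of stability. Iigp1, which was not at an unadjusted p under 0.05, changed sign in KO minus WT under some alternatives. The count of 9 members higher in KO than in WT at that limit became 5 after repeated quantile normalization, 4 when the model held the interquartile range of the array and 2 without WT 1 and KO 1 (an alternative added after the values were seen), and 4 to 10 when each array was left out, the lowest without WT 1 or KO 1 and the highest without WT 3. The gamma-type median of KO minus WT (0.94) was 0.42 without WT 1 and KO 1 and 0.63 to 1.33 with each array left out. The type I median (-0.06) was 0.11 with array weights, 0.16 with sex as a term and -0.06 to 0.36 with each array left out, highest without WT 3. The type I median of Het minus WT (0.13) ran from 0.00 to 0.31 and that of the Het and KO mean minus WT (0.12) from 0.03 to 0.30 with each array left out, also highest without WT 3; the gamma-type median of Het minus WT ran from 0.05 without Het 3 to 0.69 without Het 2. The cause of these shifts was not tested.

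With the replicate number as a block, the members higher in KO at an unadjusted p under 0.05 were again 9 and the 1 lower member was lost; over all genes the calls at an adjusted p under 0.05 fell from 7 to 0. Beyond the members, those calls were 0 in the fit that held the interquartile range and 24 with array weights. Readings near those of absent transcripts (Mx1, Mx2, Rsad2, Gbp6, and Gbp9 in WT) limit what can be said of these genes.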
